A study of Mus musculus with 8 samples.

Results

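Transcripts from 10 genes that build or switch on the contractile apparatus of smooth muscle were followed across the cell types of the mouse iris. The genes were *Acta2*, *Actg2*, *Myh11*, *Tagln*, *Cnn1*, *Mylk*, *Smtn*, *Lmod1*, *Des* and *Myocd*. They were taken by symbol from a list of known smooth muscle genes, and all 10 were present among the 22873 genes counted. Together they accounted for 626927 of 109565284 unique molecular identifiers (UMIs, each standing for a captured RNA molecule), or 0.572%. *Mylk* was counted most, with 398201 UMIs, and *Actg2* least, with 958 UMIs.

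The data were single nucleus RNA-seq (snRNAseq) profiles of 34357 nuclei from irises, with some adjoining ciliary body, of wild-type (WT) female albino mice aged 6 to 8 weeks. Each of 8 libraries pooled 5 or 6 irises. 3 libraries came from untreated mice, 3 from mice with pupils constricted by hourly drops of 5% pilocarpine, a muscarinic agonist, over 6 hours in the light, and 2 from mice with pupils dilated by hourly drops of 5% phenylephrine, an alpha-1 adrenergic agonist, together with 1% cyclopentolate, a muscarinic antagonist, over 6 hours in the dark. Drug and lighting changed together and cannot be told apart. The authors assigned each nucleus to 1 of 10 cell types: dilator muscle (11606 nuclei), sphincter 1 (1011), sphincter 2 (712), iris pigment epithelium (PE, 8704), ciliary body epithelium (CBE, 1295), other ciliary body cells (CB, 1291), stroma 1 (2315), stroma 2 (6763), leukocytes (387) and endothelial cells (273). The library was the replicate in every test. P-values of tests within a cell type measure the spread between pools of irises. The tests of interaction described later held a term for each library. Their p-values measure how the difference between 2 cell types of a library varied over libraries.

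Smooth muscle contracts when calcium signals activate myosin light chain kinase, which phosphorylates the light chains of smooth muscle myosin and lets the myosin pull on filaments of smooth muscle actin. The genes of this apparatus are switched on together by serum response factor (SRF), which binds CArG boxes in their promoters, and by its coactivator myocardin. In the iris, radial dilator fibers widen the pupil under adrenergic control, and the circular sphincter narrows it under cholinergic control.

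Libraries held 5189437 to 25136427 UMIs, with medians of 2775 to 4697.5 UMIs per nucleus. The 3 muscle types were checked against markers outside the 10 genes. The dilator markers *Adra1a* and *Nos1* summed to between 709 and 741 UMIs per 1000000 (CPM) in the dilator muscle of the 3 untreated libraries, and the sphincter markers *Chrm3*, *Ttn*, *Nptx2*, *Ckm* and *Syt1* summed to between 9524 and 11139 CPM in sphincter 1. Sphincter 2 had means of 260 CPM of the dilator markers and 2825 CPM of the sphincter 1 markers. Most of the latter was *Syt1* (2112 CPM) and *Chrm3* (665 CPM), with *Nptx2* at 37.2 CPM. *Ttn* (8.39 CPM) and *Ckm* (2.47 CPM) were near their levels in dilator muscle (9.51 and 1.29 CPM). Untreated library 1, the library with the fewest UMIs, stood apart. Its *Actb* level in dilator muscle was 734 CPM against 145 and 176 CPM in the other untreated libraries, and its *Tagln* level over the 7 non-muscle types pooled was 209 CPM against 44.4 and 51.9 CPM. Scrublet marked 359 nuclei (1.04%) as doublets, and 7.52% of sphincter 1 nuclei. Any pair of libraries shared between 0 and 63 nucleus barcodes, at most 4.26% of the smaller library. The 63 were shared by untreated library 1 and dilated library 1. The next highest count was 18, for constricted library 1 and dilated library 1. The part of shared barcodes in the results was not tested.

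Promoter windows of RefSeq (GRCm38.p6, 250 bases before to 50 bases after a start) were at hand for 6 of the 10 genes (*Acta2*, *Cnn1*, *Des*, *Lmod1*, *Mylk* and *Smtn*). The 2 windows below are shown because *Acta2* alone held a CArG-like element, and *Lmod1* is the gene that changed in stroma 2 on dilation (described later). Capitals mark matches. A relaxed CArG box was read as CC, 6 bases with at most 1 G or C among them, and GG, on both strands, and the TEAD motif as CATTCC or its reverse complement GGAATG. The motifs do not overlap in these windows.
Acta2 (chr19:34255324-34255623, minus strand): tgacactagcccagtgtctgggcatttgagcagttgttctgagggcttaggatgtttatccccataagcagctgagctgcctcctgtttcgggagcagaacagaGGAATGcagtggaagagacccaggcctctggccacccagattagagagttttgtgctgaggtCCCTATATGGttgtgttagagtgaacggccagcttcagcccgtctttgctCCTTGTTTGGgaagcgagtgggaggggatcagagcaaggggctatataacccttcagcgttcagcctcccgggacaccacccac
Lmod1 (chr1:135324563-135324862, plus strand): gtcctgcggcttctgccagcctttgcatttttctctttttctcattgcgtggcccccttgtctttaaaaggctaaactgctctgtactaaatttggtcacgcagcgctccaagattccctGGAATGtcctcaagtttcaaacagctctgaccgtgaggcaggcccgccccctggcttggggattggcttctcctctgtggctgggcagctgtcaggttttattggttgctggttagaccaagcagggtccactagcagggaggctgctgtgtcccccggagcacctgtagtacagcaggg

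The *Acta2* window held 2 relaxed CArG boxes, starting at positions -84 and -34 from the start, and a TEAD motif at -146. Of the 6 windows, 1 held a relaxed CArG box and 4 held the TEAD motif (*Acta2*, *Lmod1*, *Mylk* and *Smtn*). Over all 32851 windows of the same length, 9.98% held a relaxed CArG box, 0.822% held 2 or more, and 14.7% held the TEAD motif. None of the 6 windows held a strict box with no G or C in the core, which 1.63% of all windows did.

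In untreated irises each of the 10 transcripts had its highest mean level in a muscle type, *Mylk* and *Smtn* in dilator muscle, *Tagln* and *Lmod1* in sphincter 2 and the other 6 in sphincter 1. Because the clusters were formed from the same counts, levels between cell types are a description without a test. Summed over the 10 genes, dilator muscle had 11942 ± 76.4 CPM (SD, n = 3), sphincter 1 had 9979 ± 1089 CPM and sphincter 2 had 12080.5 ± 526 CPM. Stroma 1 had the lowest sum, 362 ± 28.5 CPM, and iris PE had the highest outside muscle, 3144 ± 18.9 CPM, of which 2827 ± 92.6 CPM was *Mylk*. The similar sums of the 3 muscle types covered different makeups. Without *Mylk*, the sum was 3730 ± 319 CPM in dilator muscle against 6996 ± 967 CPM (sphincter 1) and 6624 ± 208 CPM (sphincter 2), so that all untreated dilator values (at most 4090 CPM) lay below all untreated sphincter values (at least 6259 CPM).

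**Figure D1:**
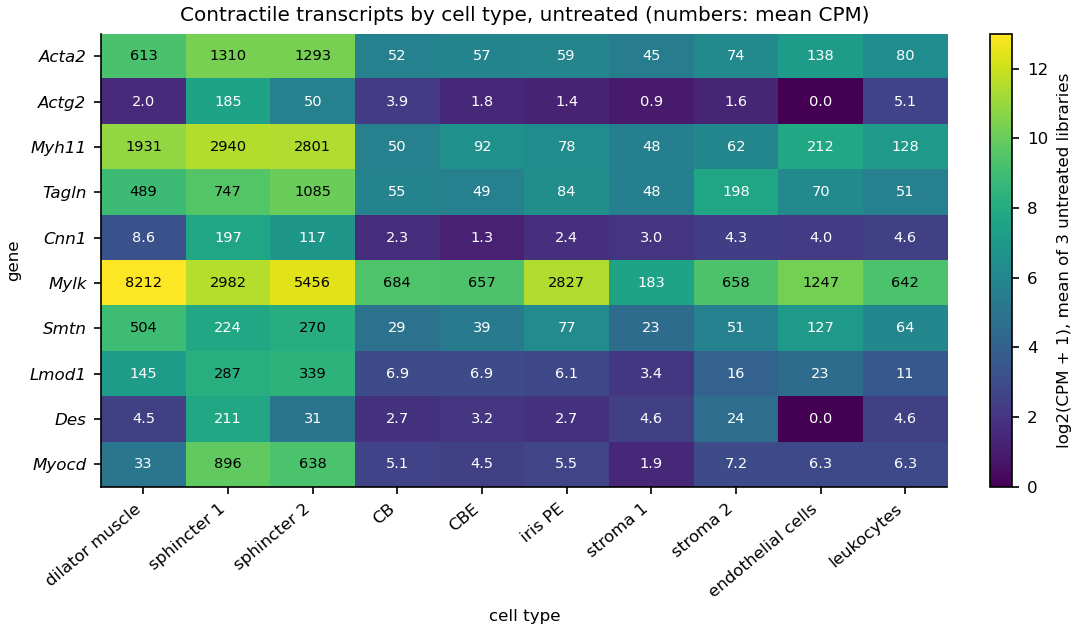
Level of each of the 10 transcripts (rows) in the 10 cell types (columns) of untreated irises, with the colour on a log2(CPM + 1) scale and the mean CPM of 3 libraries written in each cell. The 3 muscle columns hold the highest value in every row, and *Actg2*, *Cnn1*, *Des* and *Myocd* are much lower in the dilator column than in the sphincter columns.

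The motor and its track were read in all 3 muscle types. *Myh11* codes for smooth muscle myosin heavy chain (ENSMUSG00000018830.10, mm10 chromosome 16, 14194535 to 14291372, minus strand) and was at 1931 ± 219 CPM in dilator muscle against 2940 ± 268 CPM (sphincter 1) and 2801 ± 344 CPM (sphincter 2). It was higher in either sphincter type than in dilator muscle in 3 of 3 untreated libraries, and sphincter 1 exceeded sphincter 2 in 1 of 3. *Acta2* codes for alpha smooth muscle actin (chromosome 19, 34241090 to 34255590, minus strand) and was at 613 ± 296 CPM in dilator muscle against 1310 ± 281 CPM (sphincter 1) and 1293 ± 237 CPM (sphincter 2). Here too the 2 sphincter types did not differ beyond their spread. *Actg2*, the gamma smooth muscle actin that predominates in visceral muscle (chromosome 6, 83512905 to 83536265, minus strand), behaved differently. Its level was 1.95 ± 1.56 CPM in dilator muscle against 185 ± 31.3 CPM (sphincter 1) and 50.0 ± 23.3 CPM (sphincter 2). Sphincter 1 exceeded sphincter 2 in 3 of 3 libraries, 3.69-fold in the means.

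*Mylk* and *Smtn* had the reverse order. *Mylk* codes for myosin light chain kinase (chromosome 16, 34745210 to 35002420, plus strand) and was at 8212 ± 320 CPM in dilator muscle against 5456 ± 386 CPM (sphincter 2) and 2982 ± 131 CPM (sphincter 1). Iris PE, which lies against the dilator, held 2827 ± 92.6 CPM, close to sphincter 1, and the next type was endothelial cells at 1247 ± 284 CPM. *Smtn* codes for smoothelin, which associates with actin filaments in contractile smooth muscle (chromosome 11, 3517523 to 3540612, minus strand), and was at 504 ± 23.6 CPM in dilator muscle against 270 ± 40.8 CPM (sphincter 2) and 224 ± 46.1 CPM (sphincter 1). For both genes dilator muscle exceeded either sphincter type in 3 of 3 libraries.

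The thin filament proteins were split. *Tagln* codes for transgelin (SM22 alpha), an actin-binding protein of differentiated smooth muscle (chromosome 9, 45929619 to 45936058, minus strand), and was at 489 ± 216 CPM in dilator muscle against 747 ± 131 CPM (sphincter 1) and 1085 ± 272 CPM (sphincter 2). *Cnn1* codes for calponin 1, an actin-binding inhibitor of the myosin ATPase (chromosome 9, 22099216 to 22109630, plus strand), and was at 8.65 ± 1.17 CPM in dilator muscle against 197 ± 14.7 CPM (sphincter 1) and 117 ± 24.0 CPM (sphincter 2). *Lmod1* codes for leiomodin 1, which nucleates smooth muscle actin filaments (chromosome 1, 135324807 to 135368065, plus strand), and was at 145 ± 14.6 CPM in dilator muscle against 287 ± 83.2 CPM (sphincter 1) and 339 ± 25.5 CPM (sphincter 2). All 3 were higher in either sphincter type than in dilator muscle in 3 of 3 libraries, but by 22.8-fold in sphincter 1 for *Cnn1* against 1.53-fold for *Tagln*.

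*Des* and *Myocd* separated the muscles as widely. *Des* codes for desmin, the muscle intermediate filament protein (chromosome 1, 75360329 to 75368579, plus strand), and was at 4.49 ± 1.37 CPM in dilator muscle against 211 ± 50.1 CPM (sphincter 1) and 31.2 ± 13.03 CPM (sphincter 2). The dilator level lay under the 23.7 ± 3.76 CPM of stroma 2. *Myocd* codes for the coactivator myocardin (chromosome 11, 65176561 to 65269989, minus strand) and was at 33.0 ± 5.66 CPM in dilator muscle against 896 ± 107 CPM (sphincter 1) and 638 ± 183 CPM (sphincter 2). Sphincter 1 thus exceeded dilator muscle 27.2-fold, and outside muscle *Myocd* reached at most 7.19 ± 2.36 CPM, in stroma 2. *Myocd* had the largest ratio of highest muscle type to highest other type of the 10 genes (log2 ratio 6.96), and *Mylk* the smallest (1.54). *Actg2* and *Des* had 0 UMIs in the endothelial cells of all 3 untreated libraries, where 3 counts over the pooled UMIs would be 7.82 CPM.

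Levels between genes were compared per kilobase of gene span, since reads from introns were counted and the spans range from 6.44 kb (*Tagln*) to 257 kb (*Mylk*). On this scale *Tagln* was highest in each muscle type (75.9, 116 and 168 CPM per kb in dilator muscle, sphincter 1 and sphincter 2) and *Acta2* came next (42.3, 90.3 and 89.2 CPM per kb). *Mylk*, first by CPM in dilator muscle, came after both there (31.9 CPM per kb), and in sphincter 1 it came after *Myh11*, *Des* and *Cnn1* as well (11.6 CPM per kb). Whether UMIs rise in step with span was not tested, so this order between genes depends on the scale chosen. Exons covered 4.38% of the span for *Mylk*, 30.9% for *Tagln* and 45.5% for *Des*. *Tagln* shares 3627 bases with an antisense gene and 108 bases with *Pcsk7*, and *Mylk*, *Smtn*, *Lmod1* and *Des* also overlap annotated genes on the opposite strand. Whether the counting used strand is not given in the sources used here, so the counts of these 5 genes may hold reads of their neighbours.

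To compare nuclei at equal depth, each nucleus was thinned to 1000 UMIs, which left out 26 of 4357 dilator, 4 of 544 sphincter 1 and 1 of 352 sphincter 2 nuclei of the untreated libraries. A thinned nucleus then held UMIs of 2.97 ± 0.150 of the 10 genes in dilator muscle (SD over 3 library means), 4.46 ± 0.211 in sphincter 1 and 4.14 ± 0.0918 in sphincter 2. The range over the 7 other types was 0.343 ± 0.0145 in stroma 1 to 1.12 ± 0.0747 in iris PE. *Mylk* was detected in 99.4% of thinned dilator nuclei (95% Wilson interval 99.1 to 99.6%) and in 18.1% of stroma 1 nuclei (16.1 to 20.3%), which serve here as background, with unthinned median depths of 3410 and 2691 UMIs. *Actg2* was detected in 16.1% of sphincter 1 nuclei (13.3 to 19.4%) and in 0.162% of dilator nuclei (0.0783 to 0.333%), a share no higher than the 0.0781% of stroma 1 beyond counting error (0.0138 to 0.441%). *Myocd* was detected in 52.0% of sphincter 1 nuclei (47.8 to 56.2%), 47.0% of sphincter 2 nuclei (41.8 to 52.2%) and 2.70% of dilator nuclei (2.26 to 3.23%), against 0.313% in stroma 1 (0.122 to 0.801%). Intervals cover counting error only. Without thinning, *Actg2* was detected in 36.6% of sphincter 1 and 0.436% of dilator nuclei.

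The genes whose levels followed the 10 most closely were ranked by Pearson's r of log2(CPM + 1) with the mean z-score of the 10 genes, over the 30 untreated library and cell type profiles and among 11656 genes. Profiles of a library share its depth and preparation, so r is a description. The 10 highest were *Ppp1r12b* (r = 0.975), a myosin phosphatase subunit, *Tpm1* (0.963), a tropomyosin, *Atcayos* (0.954), *Synpo2* (0.947), an actin-bundling protein, *Dgki* (0.946), a diacylglycerol kinase, *Pdlim3* (0.942), a PDZ and LIM protein of the actin cytoskeleton, *Tacr3* (0.941), the neurokinin 3 receptor, *Myl9* (0.936), the regulatory myosin light chain, *Carmn* (0.934), a smooth muscle long noncoding RNA, and *Adarb2* (0.924), an RNA-binding protein. Among the 10 genes themselves, r with the mean of the other 9 ran from 0.695 (*Des*) and 0.742 (*Mylk*) to 0.951 (*Acta2*) and 0.954 (*Lmod1*).

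Dilation was compared with no treatment in each muscle type to ask which contractile transcripts change when the dilator shortens and the sphincter lengthens. *Tagln* rose in dilator muscle and in sphincter 1, *Myocd* fell in dilator muscle, and *Actg2* and *Cnn1* rose in sphincter 2. The other members tested in these types did not pass the threshold (absolute log2 fold change above 0.6 and adjusted p under 0.05, from edgeR's quasi-likelihood test with Benjamini-Hochberg adjustment over all genes tested in the type). Counts called were 2 of 9 in dilator muscle, where 13.3% of all genes tested were called, 1 of 10 in sphincter 1, where 1.95% were, and 2 of 10 in sphincter 2, where 2.87% were. *Actg2* was too low in dilator muscle to be tested. Fold changes below follow TMM scaling, whereas CPM are not TMM-scaled, and the median log2 fold change of all genes was 0.02, -0.0022 and 0.01 in the 3 types.

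In dilator muscle *Tagln* was at 737, 357 and 372 CPM in the untreated libraries, 619, 760 and 1059 CPM in the constricted libraries, and 978 and 1944 CPM in the dilated libraries. Both dilated values lay above all untreated values, and dilated library 1 lay below the highest constricted value. The log2 fold change of dilated against untreated was 1.83 ± 0.35 (SE), 3.56-fold, with an adjusted p of 0.00384 from edgeR. It was 2.19 without untreated library 1 (adjusted p = 0.00282, edgeR) and 1.15 without dilated library 2, where the call was lost (adjusted p = 0.0586, edgeR). Against the constricted libraries the log2 fold change was 1.04 (adjusted p = 0.0731, edgeR). In the same nuclei the dilator markers *Adra1a* and *Nos1* summed to 483 and 338 CPM in the dilated libraries, below the untreated range given above. Their sums in the constricted libraries were 740, 565 and 403 CPM, with constricted libraries 2 and 3 also below that range. *Tagln* over the 7 non-muscle types pooled was at 200 and 262 CPM after dilation. Its pooled level was 209, 44.4 and 51.9 CPM untreated and 98.1, 100 and 134 CPM constricted. The part of either in the result was not tested.

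In sphincter 1 *Tagln* was at 898, 679 and 663 CPM in the untreated libraries, 796, 496 and 806 CPM in the constricted libraries, and 1538 and 1708 CPM in the dilated libraries. The dilated values lay above all 6 others. The log2 fold change was 1.18 ± 0.22 against untreated (2.26-fold, adjusted p = 0.00479, edgeR) and 1.21 ± 0.22 against constricted libraries (adjusted p = 0.00208, edgeR). The call against untreated was lost without dilated library 2 (1.07, adjusted p = 0.0803, edgeR) and without untreated library 3 (1.12, adjusted p = 0.0690, edgeR). The sphincter 1 markers *Ttn*, *Nptx2* and *Ckm* summed to 2199, 1526 and 1870 CPM in untreated, 1932, 3371 and 2664 CPM in constricted and 578 and 736 CPM in dilated sphincter 1. Their sum was thus lower after dilation. Untreated, most of it was *Ttn* (mean 1683 CPM), with *Nptx2* at 112 CPM and *Ckm* at 70.0 CPM. With *Chrm3* and *Syt1* added, the sums overlapped. They were 11139, 9524 and 10296 CPM untreated, 10519, 11887 and 8211 CPM constricted, and 10518 and 9267 CPM dilated. The part of these markers in the result was not tested. In sphincter 2 *Tagln* was already higher before treatment, at 1393, 878 and 984 CPM untreated, 1308, 1010 and 1798 CPM constricted, and 1278 and 1928 CPM dilated. These groups overlapped, and the log2 fold change of 0.69 ± 0.23 had an adjusted p of 0.115 (edgeR).

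*Myocd*, the coactivator, was at 33.7, 27.0 and 38.3 CPM in untreated, 30.2, 16.4 and 21.3 CPM in constricted and 11.6 and 17.8 CPM in dilated dilator muscle. Both dilated values lay below all untreated values, and dilated library 2 lay above the lowest constricted value. The log2 fold change was -0.99 ± 0.28 (1.99-fold lower, adjusted p = 0.0330, edgeR). This call was weak: it was lost without untreated library 1 (-1.01, adjusted p = 0.0545), untreated library 2 (-1.11, 0.0540), untreated library 3 (-0.83, 0.145) or dilated library 1 (-0.62, 0.260), and against the constricted libraries (-0.50, 0.309), all by edgeR. Sphincter 1, in which *Myocd* is abundant, showed 1016, 812 and 859 CPM untreated and 1020 and 757 CPM dilated, a log2 fold change of 0.03 ± 0.21.

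In sphincter 2 *Actg2* was at 73.3, 49.9 and 26.7 CPM in the untreated libraries, 42.2, 115 and 97.1 CPM in the constricted libraries, and 156 and 81.8 CPM in the dilated libraries. Both dilated values lay above all untreated values, though 2 of 3 constricted values did so too. The log2 fold change of dilated against untreated was 1.57 ± 0.38 (2.96-fold, adjusted p = 0.0181, edgeR). *Cnn1* was at 91.6, 139 and 120 CPM untreated, 146, 231 and 198 CPM constricted, and 148 and 378 CPM dilated, so that the treated libraries of either kind lay above the untreated ones. Its log2 fold change on dilation was 1.19 ± 0.30 (2.29-fold, adjusted p = 0.0208, edgeR).

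Neither sphincter 2 call held in DESeq2 (adjusted p = 0.0959 for *Actg2* and 0.0592 for *Cnn1*). *Actg2* was also lost without dilated library 1 (1.12, adjusted p = 0.287), untreated library 2 (1.75, 0.0569) or untreated library 3 (1.12, 0.289), and *Cnn1* without dilated library 2 (0.27, adjusted p = 0.883), untreated library 1 (1.11, 0.0685), untreated library 2 (1.33, 0.0531) or untreated library 3 (1.16, 0.131), all by edgeR. The sphincter 1 markers that were low in sphincter 2, *Ttn*, *Nptx2* and *Ckm*, summed to 64.1, 41.6 and 38.5 CPM in untreated, 58.4, 36.1 and 114 CPM in constricted and 107 and 98.8 CPM in dilated sphincter 2. Their sum was thus also higher after dilation than untreated. Untreated, most of this sum was *Nptx2* (mean 37.2 CPM), with *Ttn* at 8.39 CPM and *Ckm* at 2.47 CPM, unlike in sphincter 1. With *Chrm3* and *Syt1* added, the sum went the other way. It was 2437, 2797 and 3242 CPM in untreated, 2967, 3450 and 3085 CPM in constricted and 2082 and 1795 CPM in dilated sphincter 2. The part of these markers in the 2 results was not tested.

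**Figure D2:**
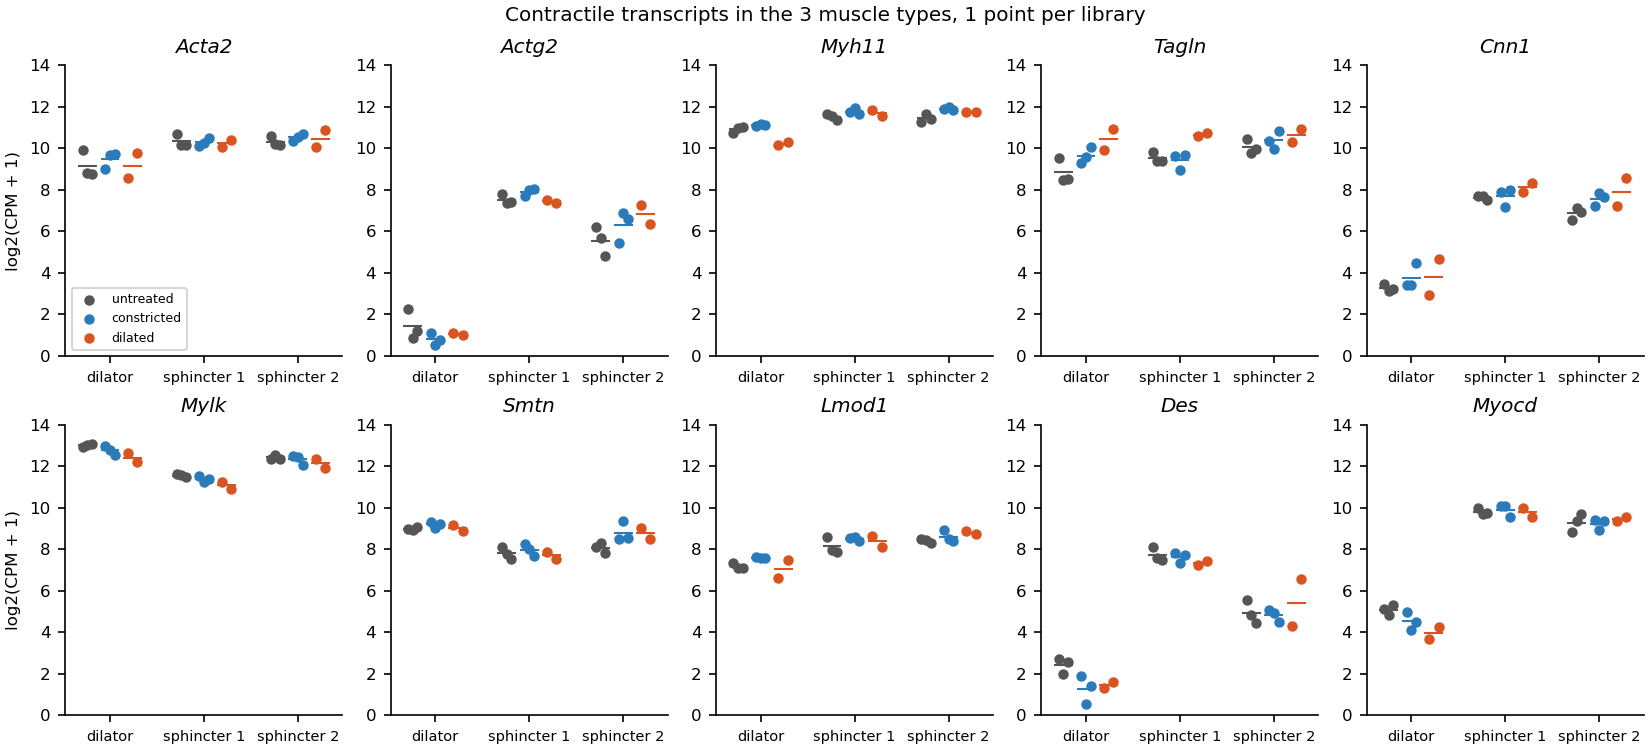
Level of each transcript as log2(CPM + 1) in each library (points) of the 3 muscle types, with untreated, constricted and dilated libraries in grey, blue and orange and a line at each group's mean. The dilated points of *Tagln* in sphincter 1 lie above all others, and those of *Myh11* in dilator muscle lie below all others.

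The remaining members did not pass the threshold in any muscle type. The closest was *Myh11* in dilator muscle, at 1681, 2022 and 2090 CPM untreated, 2168, 2341 and 2251 CPM constricted, and 1140 and 1246 CPM dilated. The dilated libraries lay below all others, yet the log2 fold change against untreated was -0.50 ± 0.17 (adjusted p = 0.0654, edgeR). Without untreated library 1 it was -0.63 and was called (adjusted p = 0.0261, edgeR), and against the constricted libraries it was -0.74 ± 0.17 (adjusted p = 0.0139, edgeR). *Mylk* had dilated values below all untreated values in dilator muscle (7842, 8389 and 8404 against 6233 and 4703 CPM) and in sphincter 1 (3107, 2995 and 2845 against 2441 and 1899 CPM), with log2 fold changes of -0.41 ± 0.16 (adjusted p = 0.122, edgeR) and -0.42 ± 0.19 (adjusted p = 0.432, edgeR). The dilated and constricted values of *Mylk* overlapped in both types. How many of all genes had dilated values outside the range of the untreated ones was not counted. *Smtn* in sphincter 2 had a log2 fold change of 0.77 ± 0.24 (adjusted p = 0.0854, edgeR). *Acta2* had log2 fold changes of 0.27 ± 0.38 in dilator muscle, -0.05 ± 0.22 in sphincter 1 and 0.30 ± 0.22 in sphincter 2, *Lmod1* of 0.12 ± 0.23, 0.33 ± 0.23 and 0.48 ± 0.22, and *Des* of -1.14 ± 0.52, -0.30 ± 0.24 and 1.19 ± 0.50. The *Des* value in sphincter 2 rests on dilated library 2 (92.0 CPM), since dilated library 1 had 18.5 CPM, below all 3 untreated libraries. Over the members tested, the median log2 fold change was 0.12 in dilator muscle, 0.01 in sphincter 1 and 0.59 in sphincter 2, where 9 of 10 were positive. The median of all genes in sphincter 2 was 0.01. On constriction against the same untreated libraries the members' medians were 0.24, 0.15 and 0.34 in the 3 types. In sphincter 2, 8 of 10 were then positive.

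**Figure D3:**
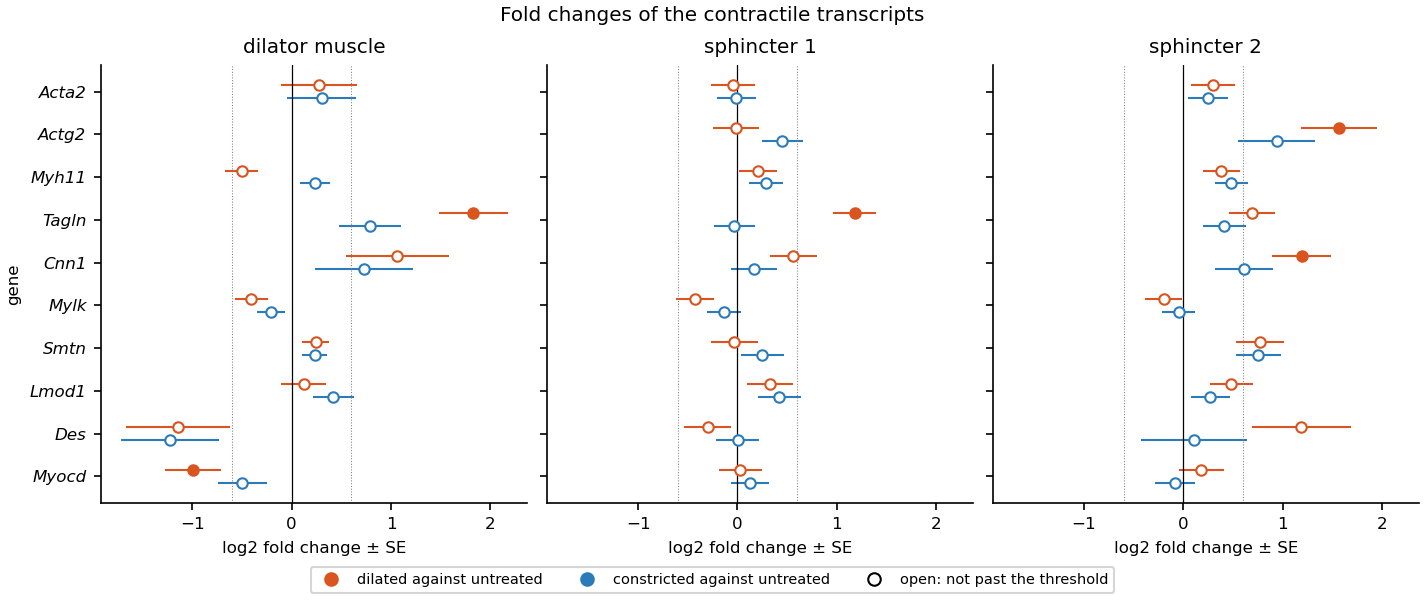
Log2 fold change ± SE of each transcript in the 3 muscle types, for dilated against untreated (orange) and constricted against untreated (blue) libraries, with filled points past the threshold and dotted lines at 0.6 and -0.6. The 5 filled points are all from dilation, and *Actg2* in dilator muscle is missing because it was not tested.

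Whether dilation acted differently on a transcript in different muscles was tested as the interaction of cell type and dilation in joint fits (called at adjusted p under 0.05, edgeR). The effect on *Tagln* was smaller in sphincter 2 than in dilator muscle, with a difference of -1.13 ± 0.16 in log2 fold change (adjusted p = 8.78e-10, edgeR). *Myh11* differed in the other direction, by 0.94 ± 0.15 in sphincter 2 (adjusted p = 3.88e-07, edgeR) and 0.73 ± 0.18 in sphincter 1 (adjusted p = 0.00211, edgeR) against dilator muscle. *Myocd* likewise differed by 1.15 ± 0.20 in sphincter 2 (adjusted p = 5.39e-06, edgeR) and 1.09 ± 0.24 in sphincter 1 (adjusted p = 0.000543, edgeR). *Actg2* had a lower dilation effect in sphincter 1 than in sphincter 2, by -1.56 ± 0.36 (adjusted p = 0.00438, edgeR). These were 2 of 10 members for sphincter 1 against dilator muscle, 3 of 10 for sphincter 2 against dilator muscle and 1 of 10 for sphincter 1 against sphincter 2, where 6.71%, 2.1% and 3.33% of all genes tested were called. The difference of -0.62 ± 0.21 for *Tagln* between sphincter 1 and dilator muscle was not called (adjusted p = 0.0543, edgeR), though without untreated library 1 it was -0.81 and called (adjusted p = 0.00193, edgeR). *Myocd* lost its call for both sphincter types without dilated library 1 (0.49 and 0.90, adjusted p = 0.430 and 0.0526, edgeR), *Myh11* lost it for sphincter 1 without dilated library 1 (0.49, adjusted p = 0.294, edgeR) or untreated library 3 (0.66, adjusted p = 0.0703, edgeR), and *Actg2* lost it without dilated library 1 (-1.13, adjusted p = 0.369, edgeR) or untreated library 3 (-1.12, adjusted p = 0.218, edgeR).

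Constriction with pilocarpine, which shortens the sphincter, was compared with no treatment in the same way. No member was called in any of the 3 muscle types: 0 of 9 in dilator muscle, 0 of 10 in sphincter 1 and 0 of 10 in sphincter 2, where 0.0065%, 0.0% and 0.0897% of all genes tested were called by edgeR. DESeq2 also called 0 members in each. An unadjusted p under 0.05 was reached by 2, 1 and 4 members in edgeR. Of all genes tested, 630 of 15395, 451 of 7112 and 397 of 6691 reached it. The lowest adjusted p was 0.318 (edgeR), for *Smtn* in sphincter 2, at 275, 308 and 227 CPM untreated and 360, 650 and 367 CPM constricted, with a log2 fold change of 0.76 ± 0.23. The constricted values lay above all untreated ones, and constricted library 2 was far above the other 2. *Myh11* in sphincter 2 was at 2492, 3171 and 2740 CPM untreated and at 3853, 4100 and 3638 CPM constricted (0.49 ± 0.16), and *Cnn1* there had a log2 fold change of 0.61 ± 0.29, both again without overlap. The share of all genes whose constricted and untreated libraries did not overlap was not counted. *Tagln* was at -0.03 ± 0.21 in sphincter 1 and 0.79 ± 0.32 in dilator muscle, where the libraries overlapped. The 2 comparisons share the untreated libraries.

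The genes around the 10 members were described from 5 lists. In dilated dilator muscle, of 11 cytoplasmic or other-muscle paralogues tested, 5 rose and 0 fell, where 13.3% of all genes tested were called in either direction (median log2 fold change 0.37 against 0.02 for all genes). *Tagln2*, a paralogue of transgelin outside smooth muscle, rose by 2.87 ± 0.31 on the log2 scale, *Vim*, the mesenchymal intermediate filament protein vimentin, by 2.34 ± 0.18, *Myh9*, a nonmuscle myosin heavy chain, by 1.62 ± 0.25, *Actg1*, cytoplasmic gamma actin, by 1.35 ± 0.25, and *Cnn3*, the broadly expressed calponin, by 0.83 ± 0.19 (adjusted p at most 0.0103, edgeR). *Vim* was at 56.1, 48.0 and 51.4 CPM untreated and at 210 and 244 CPM dilated, far apart. *Actb* and *Cnn2*, also cytoplasmic forms, had log2 fold changes of 0.18 ± 0.48 and 0.37 ± 0.24. In neither sphincter type did any of 7 paralogues tested pass the threshold, which 1.95% of all genes did in sphincter 1 and 2.87% in sphincter 2.

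Of 35 other contractile and cytoskeletal genes tested in dilator muscle, 17 rose and 1 fell (median 0.62), against the 13.3% of all genes called. *Pgm5*, a protein of adherens-type junctions to actin, rose by 2.77 ± 0.25, *Hspb1*, a small heat shock protein that binds actin, by 2.28 ± 0.46, *Tpm4*, a nonmuscle tropomyosin, by 1.97 ± 0.31, *Pdlim5*, a PDZ and LIM protein of actin filaments, by 1.77 ± 0.23, *Csrp1*, a LIM protein of smooth muscle, by 1.66 ± 0.35 and *Itga5*, the fibronectin receptor subunit, by 1.48 ± 0.18. In sphincter 2, where 2.87% of all genes were called, 9 of 34 rose and 0 fell, among them *Itga5* (2.90 ± 0.35), *Pdlim5* (1.58 ± 0.23), *Csrp1* (1.25 ± 0.23) and *Pgm5* (1.11 ± 0.25). In sphincter 1, where 1.95% were called, 2 of 36 rose and 1 fell, and *Csrp1* rose by 1.18 ± 0.24. *Csrp1* was thus called in all 3 muscle types. The genes of this list with the highest untreated level in any muscle type, *Synpo2*, *Tpm1* and *Dmd* (dystrophin), all at their highest in sphincter 1, had log2 fold changes of -0.23 ± 0.20, 0.22 ± 0.19 and -0.21 ± 0.17 in dilator muscle, none called.

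Among genes that regulate contraction, 7 of 20 rose and 0 fell in dilator muscle (median 0.44), against 13.3% of all genes called. Among them *Ilk*, the integrin-linked kinase, rose by 0.99 ± 0.16, *Prkg1*, cGMP-dependent protein kinase, by 0.93 ± 0.25, *Rock2*, a kinase that promotes contraction, by 0.78 ± 0.17 and *Atp2a2*, the calcium pump of the sarcoplasmic reticulum, by 0.76 ± 0.14. *Atp2a2* also rose in sphincter 2 (0.92 ± 0.22) and fell in sphincter 1 (-0.97 ± 0.23), the single call of this list in each (1 of 15 and 1 of 16, where 2.87% and 1.95% of all genes were called). The myosin phosphatase subunits *Ppp1r12a* and *Ppp1r12b* had log2 fold changes of 0.13 ± 0.15 and -0.32 ± 0.16 in dilator muscle, not called.

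Of 21 transcriptional regulators tested in dilator muscle, 5 rose and 0 fell (median 0.28), against 13.3% of all genes called. They were the Kruppel-like factors *Klf5* (3.18 ± 0.48) and *Klf4* (2.85 ± 0.52), which are known to oppose and modulate the smooth muscle program, *Wwtr1* (1.05 ± 0.16), the coactivator TAZ, *Srf* (1.03 ± 0.26), the partner of myocardin, and *Mef2d* (0.79 ± 0.17). *Klf5* and *Klf4* rose from low levels, means of 0.814 and 2.73 CPM in untreated dilator muscle. In sphincter 2, where 2.87% of all genes were called, 1 of 12 rose, *Yap1* (0.99 ± 0.25), the paralogue of TAZ, and in sphincter 1, where 1.95% were, 0 of 13. *Tead1*, a TEAD factor, and *Mef2a* had log2 fold changes of 0.25 ± 0.16 and -0.08 ± 0.17 in dilator muscle. Of 6 mural cell markers tested there, with the same 13.3% of all genes called, 0 rose and 2 fell, *Kcnj8* (-2.13 ± 0.60) and *Abcc9* (-1.77 ± 0.38), which together form a potassium channel. *Kcnj8* was at 0.401 to 3.48 CPM in all untreated and dilated libraries. *Cspg4*, *Notch3* and *Pdgfrb* were not called (-0.22 ± 0.46, -0.47 ± 0.32 and -0.23 ± 0.45). On constriction no gene of the 5 lists was called in any muscle type.

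**Figure D4:**
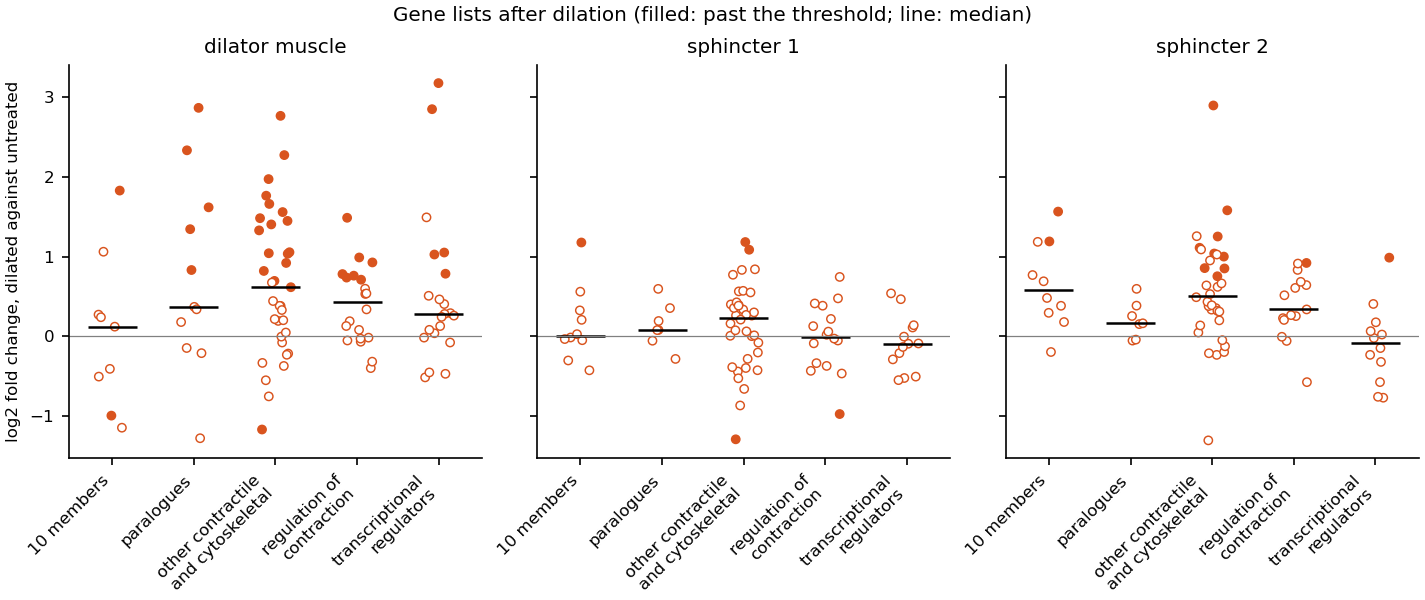
Log2 fold change of dilated against untreated libraries for the members and 4 of the 5 lists in the 3 muscle types, with filled points past the threshold and a line at each median. In dilator muscle the median of the other contractile and cytoskeletal genes is 0.62 and that of the 9 members tested there 0.12.

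Outside muscle, 38 of 70 pairs of a member and a cell type could be tested for dilation, and 2 were called. In iris PE, where 0.595% of all genes tested were called, *Mylk* fell. It was at 2721, 2874 and 2887 CPM untreated, 2679, 2314 and 1848 CPM constricted, and 1580 and 1198 CPM dilated, with the dilated libraries below all others. The log2 fold change was -0.99 ± 0.18 (1.98-fold lower, adjusted p = 0.0279, edgeR). The dilator markers in iris PE summed to between 20.3 and 22.6 CPM untreated and to 28.9 and 11.3 CPM dilated. *Mylk* also had dilated values below untreated ones in dilator muscle, sphincter 1, CB, CBE and endothelial cells, none called. In each of these types a constricted library lay below dilated library 1. The share of all genes without such overlap was not counted. The iris PE call was lost without either dilated library (-1.15 and -0.84, adjusted p = 0.0725 and 0.278, edgeR), without untreated library 2 (-0.97, adjusted p = 0.161, edgeR) or untreated library 3 (-0.95, adjusted p = 0.169, edgeR).

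In stroma 2, where 1.73% of all genes tested were called, *Lmod1* rose. It was at 25.4, 12.2 and 11.3 CPM untreated, 19.1, 29.1 and 18.4 CPM constricted, and 65.8 and 36.8 CPM dilated, above all others. The log2 fold change was 1.89 ± 0.33 (3.71-fold, adjusted p = 0.0140, edgeR), and 2.16 without untreated library 1 (adjusted p = 0.00923, edgeR). The call was lost without dilated library 1 (1.46, adjusted p = 0.101, edgeR), untreated library 2 (1.74, adjusted p = 0.115, edgeR) or untreated library 3 (1.66, adjusted p = 0.138, edgeR). *Tagln* in stroma 2 was at 458, 66.6 and 70.5 CPM untreated and at 470 and 659 CPM dilated, so that untreated library 1 was close to the dilated libraries. Its log2 fold change of 1.68 ± 0.62 was not called (adjusted p = 0.275, edgeR). Without untreated library 1, 5 pairs outside muscle were called in place of 2. Of all genes tested in iris PE, 105 of 14005 were then called, against 84 of 14128 in the main fit. The counts of all genes in stroma 2 and the other non-muscle types for this setting are not reported here. In stroma 2 *Acta2* (1.24 ± 0.35), *Cnn1* (1.202 ± 0.55), *Myocd* (1.504 ± 0.49) and *Smtn* (0.62 ± 0.23) had an unadjusted p under 0.05 but were not called. *Myh11* was at -0.15 ± 0.44, *Mylk* at -0.02 ± 0.26 and *Des* at 0.10 ± 0.26.

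Stroma 2 nuclei with 4 or more of the 10 genes detected made up 10.5%, 1.37% and 2.07% of the untreated libraries, 3.27%, 3.38% and 2.25% of the constricted libraries, and 12.8% and 6.58% of the dilated libraries. They were 77 of 3040, 48 of 1669 and 219 of 2054 nuclei in the 3 conditions, with 11, 6 and 9 marked as doublets. These shares are of unthinned nuclei. After thinning to 1000 UMIs they were 0.205% (6 of 2921), 0.487% (8 of 1643) and 2.39% (48 of 2012) in untreated, constricted and dilated libraries. In the dilated libraries the 5 sphincter 1 markers summed to 179 CPM in the 219 nuclei and to 31.9 CPM in the other 1835, with median depths of 3206 and 2462 UMIs. The sums were 314 and 32.7 CPM in the same 2 sets of nuclei of the untreated libraries. In the constricted libraries they were 87.5 and 27.6 CPM. Endothelial markers moved in stroma 2 as well: *Cldn5* rose by 2.20 ± 0.34 (adjusted p = 0.00889, edgeR) and *Erg* by 2.85 ± 0.56 (adjusted p = 0.0234, edgeR), while *Pecam1* had a log2 fold change of 0.33 ± 0.41. *Cdh5* was too low to be tested. Summed in the dilated libraries, these 4 endothelial markers were at 352 CPM in the 219 nuclei and at 561 CPM in the other 1835. The sums were 107 and 145 CPM in the same sets of untreated nuclei, and 159 and 147 CPM in those of constricted nuclei. Of the 8 mural cell markers, *Pdgfrb* (0.15 ± 0.21), *Notch3* (-0.31 ± 0.26), *Cspg4* (0.05 ± 0.31) and *Abcc9* (-1.34 ± 0.89) were tested and not called, and *Higd1b* was at 0 in all untreated and dilated libraries. The part of other cell types in the *Lmod1* result was not tested.

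**Figure D5:**
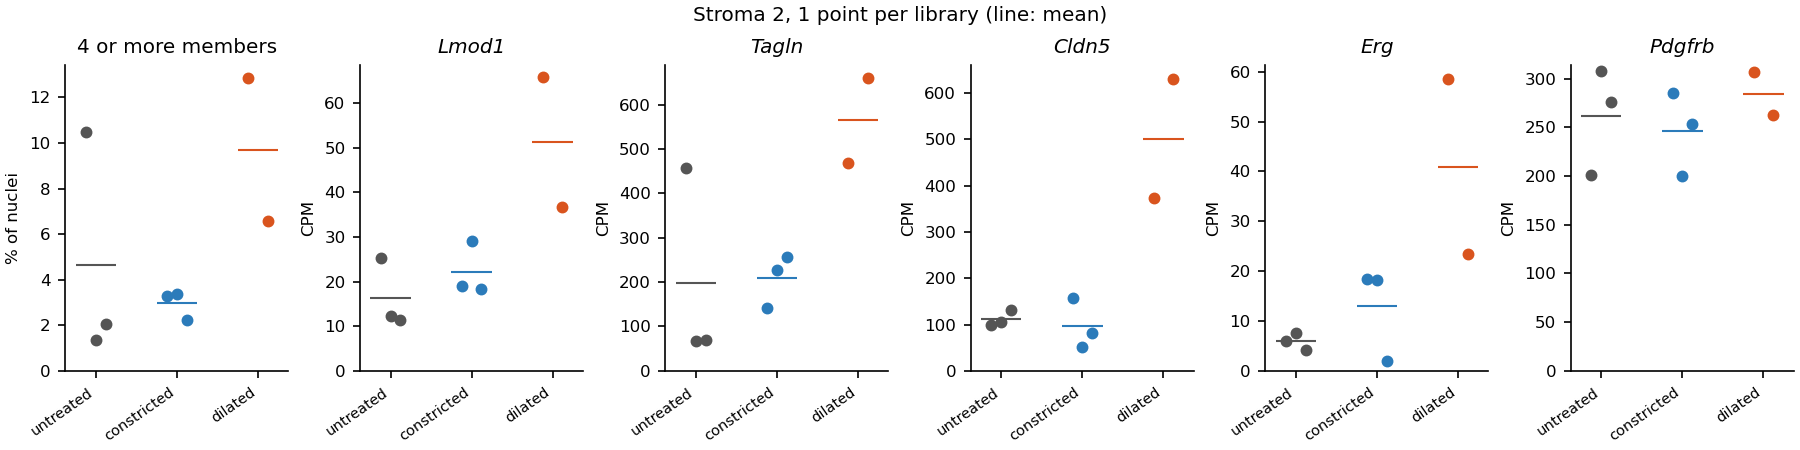
Stroma 2 in each library (points, with a line at each group's mean): the percent of nuclei with 4 or more of the 10 genes, and the CPM of *Lmod1*, *Tagln*, the endothelial markers *Cldn5* and *Erg* and the mural marker *Pdgfrb*. Untreated library 1 lies with the dilated libraries for the share of nuclei (10.5%) and for *Tagln* (458 CPM), and the 2 dilated values of *Lmod1* (36.8 and 65.8 CPM) lie above all others.

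In CB, CBE, stroma 1, endothelial cells and leukocytes 22 pairs were tested for dilation and 0 were called (4 with an unadjusted p under 0.05, lowest adjusted p 0.257, edgeR), where 0.518% of all genes tested were called. Of these 4 pairs, 1 was in CB, 1 in CBE and 2 in endothelial cells. Of all genes tested, 393 of 7522 in CB and 353 of 8166 in CBE had an unadjusted p under 0.05 (edgeR). The count of all genes in endothelial cells is not reported here, so their 2 pairs have no share beside them. On constriction 0 of the 38 pairs outside muscle were called (3 with an unadjusted p under 0.05 in edgeR, and 0 called by DESeq2), where 0.00537% of all genes tested were. Of these 3 pairs, 1 was in iris PE and 2 in leukocytes. In CB and CBE 0 members had an unadjusted p under 0.05, which 386 of 7522 and 554 of 8166 of all genes tested reached (edgeR). The counts of all genes in iris PE and leukocytes on constriction are not reported here. Of the 10 members, 2 passed the filter on low counts in endothelial cells (26113 to 173881 UMIs per library) and 5 in each of the other 4 types.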

How the data were processed

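Nuclei of 8 libraries were profiled with droplet-based snRNAseq. The deposited matrix holds UMI counts per gene and nucleus, which the authors made with Cell Ranger 3.1.0 (mm10) and Seurat, per the labels and methods. The authors removed nuclei with over 1% mitochondrial transcripts, under 500 or over 6000 transcripts, and deposited the percent of mitochondrial transcripts per nucleus and their cell type names, which were used as given. The annotation release was not given in the sources used here, and positions are those of GENCODE on mm10.

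Each cell type's UMI counts were added up within a library and tested with edgeR 4.0.16 in R 4.3.3 (TMM, filterByExpr, quasi-likelihood test, 8 libraries in a fit per cell type, two-sided, Benjamini-Hochberg adjustment). Genes were called at an adjusted p under 0.05 if the log2 fold change exceeded 0.6 in size. Joint fits with a library term gave the interactions. Scripts were tested on simulated data. CPM are UMIs per 1000000 of the same sum. Doublets were marked with Scrublet (scanpy 1.11.5) and kept, and left out as an alternative. DESeq2 1.42.0, RLE scaling, no filter, other sample sets, terms for replicate and library number, and each library left out were the other alternatives, and constricted libraries as the reference were added after the data were seen.

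The 10 genes and the lists were chosen with earlier results of these data known. From each list the text names up to 6 genes past the threshold by size of the change and the 3 with the highest untreated level, and the 10 genes most alike in profile (mean of at least 20 CPM in a cell type). All files given were used, with 0 columns of no sample. Some genes that the naming rule or a marker list holds are not reported here.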

Additional observations from a re-analysis of the deposited data

Results flagged for a closer look

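The effect of dilation differed between muscle types for 4 of the 10 genes, by the interaction of cell type and dilation (edgeR, adjusted over all genes tested). For sphincter 1 against dilator muscle 2 of 10 members were called, where 6.71% of all genes tested were. For sphincter 2 against dilator muscle 3 of 10 were, against 2.1% of all genes. Between the 2 sphincter types 1 of 10 was, against 3.33% of all genes. For *Myocd* the log2 fold change was higher than in dilator muscle by 1.09 in sphincter 1 and by 1.15 in sphincter 2. For *Myh11* it was higher than in dilator muscle by 0.73 in sphincter 1 and by 0.94 in sphincter 2. For *Tagln* the difference between sphincter 2 and dilator muscle was -1.13. For *Actg2* the difference between sphincter 1 and sphincter 2 was -1.56. As given above, the calls of *Myocd*, of *Myh11* in sphincter 1 and of *Actg2* were lost when certain single libraries were left out.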

How the results depend on the processing

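Each of the 10 genes stayed highest in a muscle type without doublets and without untreated library 1. With the constricted libraries as the reference, an alternative chosen after seeing the data, neither *Tagln* nor *Myocd* was called in dilator muscle and the 1 member called was *Myh11* (-0.74), with 0 called in sphincter 2 and 0 outside muscle. Of all genes tested, 1610 of 15395 were then called in dilator muscle and 164 of 6691 in sphincter 2. With the library number series as a term, 2 members were called in sphincter 1, where 325 of 7112 genes tested were called. There were 4 in sphincter 2, where 350 of 6691 genes were called, and 6 outside muscle. DESeq2 called 0 members in sphincter 2, where 90 of 6691 genes were called. The main fits called 139 of 7112 genes in sphincter 1 and 192 of 6691 in sphincter 2. Outside muscle, 8 were called with no filter and 4 with only the 2 groups fitted. The number of all genes called in iris PE rose in these settings too. It was 255 of 22502 with no filter and 122 of 14989 with only the 2 groups. It was 368 of 14128 there with the library series, against 84 of 14128 in the main fit. The counts of all genes in the other non-muscle types are not reported here. Without doublets 2 members differed between sphincter 1 and sphincter 2, where 270 of 7394 genes tested did. Leaving out 1 library at a time gave 1 to 2 calls in dilator muscle, 0 to 1 in sphincter 1, 0 to 3 in sphincter 2 and 0 to 5 outside muscle, and 1 to 3 interactions for sphincter 1 against dilator muscle and 0 to 1 for sphincter 1 against sphincter 2. The members counted in these ranges were not always those called in the main fits. Without dilated library 1 the interaction calls of *Myocd*, of *Myh11* in sphincter 1 and of *Actg2* were lost, as given above. Genes per nucleus were 3.81, 5.98 and 5.42 in dilator muscle, sphincter 1 and sphincter 2 at 2000 UMIs, 4.40, 6.92 and 6.46 with no thinning, and 4.51 in sphincter 2 over all 8 libraries. The cause of these shifts was not tested, other than the greater depth of unthinned nuclei.

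No called value changed direction. The values that did, 51 over 20 results, were at most 0.56 in size. On dilation with constricted libraries as the reference they were 0.084 (*Des*), -0.30 (*Lmod1*) and -0.0283 (*Acta2*) in dilator muscle, -0.0951 (*Lmod1*), -0.0984 (*Myocd*) and -0.0756 (*Myh11*) in sphincter 1 and -0.10 (*Myh11*) in sphincter 2. In sphincter 1 on dilation *Actg2* was 0.0272 without doublets, 0.008 with the library series and 0.0047 with only the 2 groups, *Myocd* -0.0462 with the series and *Acta2* 0.0018 without doublets. On constriction *Des* in sphincter 1 was -0.0135 with no filter, -0.0656 without doublets and -0.0114 in DESeq2, and in sphincter 2 -0.0032 in DESeq2. With the series, *Tagln*, *Myocd* and *Acta2* in sphincter 1 were 0.15, -0.0455 and 0.0254 and *Myocd* in sphincter 2 was 0.13. With 1 library left out, dilation values ran from -0.47 to 0.55 (*Lmod1*), -0.24 to 1.82 (*Cnn1*) and -0.56 to 0.79 (*Acta2*) in dilator muscle, from -0.0718 to 0.0835 (*Actg2*), -0.16 to 0.11 (*Smtn*), -0.14 to 0.20 (*Myocd*) and -0.26 to 0.16 (*Acta2*) in sphincter 1, and from -0.49 to 1.94 (*Des*) and -0.24 to 0.70 (*Acta2*) in sphincter 2. Constriction values ran from -0.12 to 0.14 (*Des*), -0.16 to 0.14 (*Tagln*) and -0.13 to 0.15 (*Acta2*) in sphincter 1, and from -0.18 to 0.27 (*Des*), -0.25 to 0.13 (*Myocd*) and -0.12 to 0.0639 (*Mylk*) in sphincter 2.

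The replicate numbers were taken not to pair the samples, since not every same-numbered pair correlated above 0.1 in its deviations in dilator muscle: untreated and constricted libraries gave 0.19, 0.013 and 0.33, untreated and dilated libraries 0.20 and 0.15, and constricted and dilated libraries 0.63 and -0.0346. The first libraries of the 3 groups, which carry neighbouring library numbers, all correlated above 0.1. Constricted library 3 and dilated library 2 also carry neighbouring library numbers, and correlated at 0.61 in dilator muscle. Deviations were taken from each group's mean, so those of the 2 dilated libraries mirror each other. Constricted library 3 thus gave -0.61 with dilated library 1, and the correlations with dilated libraries are not independent observations. The library series as a term changed counts as given above. The methods describe several processing batches and separate sequencing runs, with each condition spread over batches. The batch of each library is not given in the sources used here. The main fits held no batch term. The part of batch was not tested beyond the terms for replicate and library number. With the replicate block 3, 1 and 3 members were called in the 3 muscle types on dilation. Of all genes tested there, 2619 of 15395, 124 of 7112 and 232 of 6691 were called. Values that turned with the block were 0.0142 (*Actg2*, dilation), -0.0724 (*Myocd*, dilation) and -0.0138 (*Des*, constriction) in sphincter 1.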
